A study of Mus musculus with 6 samples.

Results

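The genes described here encode MHC class I antigen presentation: the heavy chains H2-K1, H2-D1 and H2-T23, the light chain B2m, the peptide transporter subunits Tap1 and Tap2, the loading factors Tapbp and Tapbpl, the peptidase Erap1 and the regulator Nlrc5. They were taken by symbol from a table of 23034 genes, and all 10 were found and passed the filter on low counts. RNA was sequenced from wild-type mouse macrophages grown from bone marrow with M-CSF (10 ng/ml) and then polarised to the M2 state over 24 hours with IL-4 (20 ng/ml). Of these cells, 3 libraries received SA@BATMAN5 for 24 hours and 3 control libraries received PBS, with each table column assigned by its short name (S-5 or N). By its title the study concerns clusters of tuftsin, a short peptide, that target Fc gamma receptors on macrophages in infections that follow sepsis. Mouse strain, the presence of IL-4 during treatment, and the origin of replicates from separate mice or cultures are not in the labels, so p-values here rest on library-to-library spread that could be technical only.

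Class I molecules show fragments of a cell's own proteins at its surface to cytotoxic T cells and natural killer cells. The proteasome cuts cytosolic proteins, the TAP transporter moves the peptides into the endoplasmic reticulum, ERAP1 trims them, and tapasin holds the empty heavy chain with its light chain at TAP until a peptide binds. NLRC5, a protein of the NOD-like receptor family, is known to drive the class I promoters through a composite element called SXY, in which the X2 part resembles a cyclic AMP response element and the Y part is an inverted CCAAT box. Interferons and NF-kappaB also act on these promoters, and macrophages are known to raise class I expression when activated by interferon.

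Among the heavy and light chain genes, H2-K1, H2-D1 and B2m carry several of these elements close together in their promoters. The heavy chain H2-T23 held only CCAAT of the 4 motifs searched. The windows of H2-K1, H2-D1 and B2m are therefore shown, with that of Tap1 for contrast. Each runs from 250 bases before to 50 bases after the first annotated start in RefSeq (build GRCm38.p6, not the build the authors aligned to), 5′ to 3′ on the gene's strand. Capitals mark matches on either strand to 4 motifs. The first is GAANNGAAA, a short form of the interferon-stimulated response element. It does not match the fuller form, GAAA on both sides of 2 bases, which was not searched for. The others are an NF-kappaB site (GGG and TTNCC with 2 bases between), TGACG (a cyclic AMP response element half-site) and CCAAT. The H2-K1 window lies at chr17:34000298-34000597 on the minus strand, the H2-D1 window at chr17:35262844-35263143 on the plus strand, the B2m window at chr2:122147437-122147736 on the plus strand and the Tap1 window at chr17:34187306-34187605 on the plus strand.
H2-K1: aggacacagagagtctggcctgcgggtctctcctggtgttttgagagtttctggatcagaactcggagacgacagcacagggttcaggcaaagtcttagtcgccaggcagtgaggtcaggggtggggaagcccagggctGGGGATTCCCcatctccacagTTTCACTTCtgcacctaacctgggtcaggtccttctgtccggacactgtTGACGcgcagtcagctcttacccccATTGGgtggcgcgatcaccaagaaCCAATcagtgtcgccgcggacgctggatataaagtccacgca
H2-D1: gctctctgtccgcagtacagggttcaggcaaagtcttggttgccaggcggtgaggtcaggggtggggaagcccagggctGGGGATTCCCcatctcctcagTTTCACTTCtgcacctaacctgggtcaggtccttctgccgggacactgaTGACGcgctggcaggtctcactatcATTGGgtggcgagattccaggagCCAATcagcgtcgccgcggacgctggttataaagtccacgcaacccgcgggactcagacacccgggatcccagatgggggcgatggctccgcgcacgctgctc
B2m: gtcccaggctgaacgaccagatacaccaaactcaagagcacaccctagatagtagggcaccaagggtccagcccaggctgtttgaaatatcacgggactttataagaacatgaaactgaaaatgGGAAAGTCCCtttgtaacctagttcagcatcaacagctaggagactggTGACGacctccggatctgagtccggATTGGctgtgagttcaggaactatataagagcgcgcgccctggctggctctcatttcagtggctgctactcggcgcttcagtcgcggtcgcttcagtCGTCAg
Tap1: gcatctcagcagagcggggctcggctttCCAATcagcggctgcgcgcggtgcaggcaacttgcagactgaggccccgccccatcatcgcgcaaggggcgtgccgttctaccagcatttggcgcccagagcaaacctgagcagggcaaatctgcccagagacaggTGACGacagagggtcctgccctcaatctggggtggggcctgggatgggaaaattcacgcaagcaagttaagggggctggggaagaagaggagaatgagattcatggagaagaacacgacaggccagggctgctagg

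Windows were in hand for 7 of the 10 members, and those of Tap2, Tapbpl and Nlrc5 were not used here. H2-K1 and H2-D1 each held all 4 motifs in the same order: the NF-kappaB motif at positions -111 to -102 in H2-K1 and -171 to -162 in H2-D1, then the interferon motif on the opposite strand at -90 to -82 and -150 to -142, then TGACG, then inverted CCAAT. These positions count from the annotated start. The shared stretch tataaagtccacgca lies after that start in H2-K1 and before it in H2-D1, so distances from the annotated starts are not directly comparable. B2m held the NF-kappaB motif, TGACG and inverted CCAAT. In H2-K1, H2-D1 and B2m alike, exactly 20 bases separated TGACG from the inverted CCAAT box that follows it. Read on the strand shown, that box is ATTGG. That spacing, counted on either strand after it had been noticed in these genes, occurred in 26 of 27025 promoters, or 0.0962%. Among the others was H2-M3, a class I heavy chain known for presenting N-formylated peptides. Alone, the motifs are common: GAANNGAAA was in 7.56% of promoters, the NF-kappaB motif in 4.71%, TGACG in 21.0% and CCAAT in 37.9%. Tap1 held TGACG and CCAAT without that spacing, H2-T23 and Tapbp held CCAAT only, and Erap1 held none of the 4 motifs. The fuller interferon form, GAAA on both sides of 2 bases, is present in B2m as gaaactgaaa. Its reverse complement is present as tttcactttc in Erap1 and tttctctttc in H2-T23. Lack of GAANNGAAA in these windows is therefore not lack of an interferon element. A match describes letters in this window and is not evidence that a factor was bound.

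**Figure D1:**
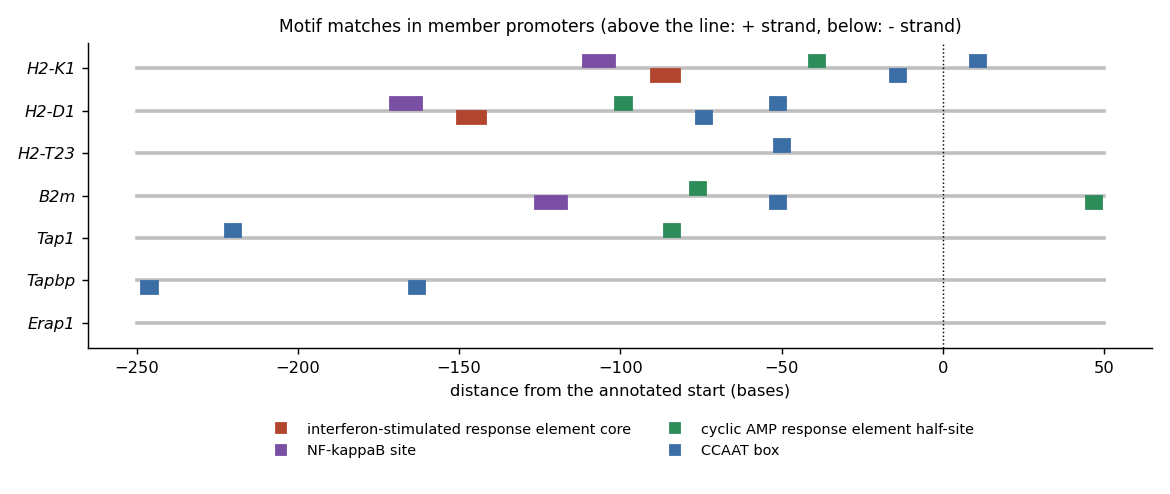
Positions of the 4 motifs in the promoter windows of 7 class I pathway genes, against distance from the annotated start in bases; coloured blocks above a line are matches on the gene's own strand and those below it on the other strand. H2-K1 and H2-D1 show the same arrangement at different distances from the start. Erap1 has no match to these 4 motifs, which leave out the fuller interferon form.

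All 10 genes were higher after SA@BATMAN5, by 1.89-fold (Erap1) to 6.23-fold (Tap1). Tap1, Tapbpl, Nlrc5 and Tapbp rose more than 4-fold, while the structural chains rose between 1.98-fold (H2-D1) and 3.60-fold (H2-K1). Tap2, the other transporter chain, rose 2.78-fold, within the range of the structural chains. The comparison asked which transcripts differed between treated and control cultures. The members were chosen with earlier results of these data known, so the shares given beside all genes are description only. In edgeR's quasi-likelihood test over 13474 genes, 10 of the 10 members were higher and 0 lower at a Benjamini-Hochberg adjusted p under 0.05, against 29.5% higher and 28.7% lower of all genes tested, 58.2% in either direction. With a floor of 2-fold the members called higher were 8 of 10, beside 9.17% of all genes tested, and with a floor of 4-fold they were 4 of 10, beside 4.46%. In all 10 every SA@BATMAN5 library stood above every control library, which was so for 32.1% of genes tested, and in none was the reverse true, which was so for 32% of them. The median log2 fold change was 1.66 over the members and -0.004 over all genes tested. With upper-quartile scaling 40.3% of all calls were higher, against 50.7% with the TMM scaling used here, and the median log2 fold change of all genes shifted by -0.08.

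**Figure D2:**
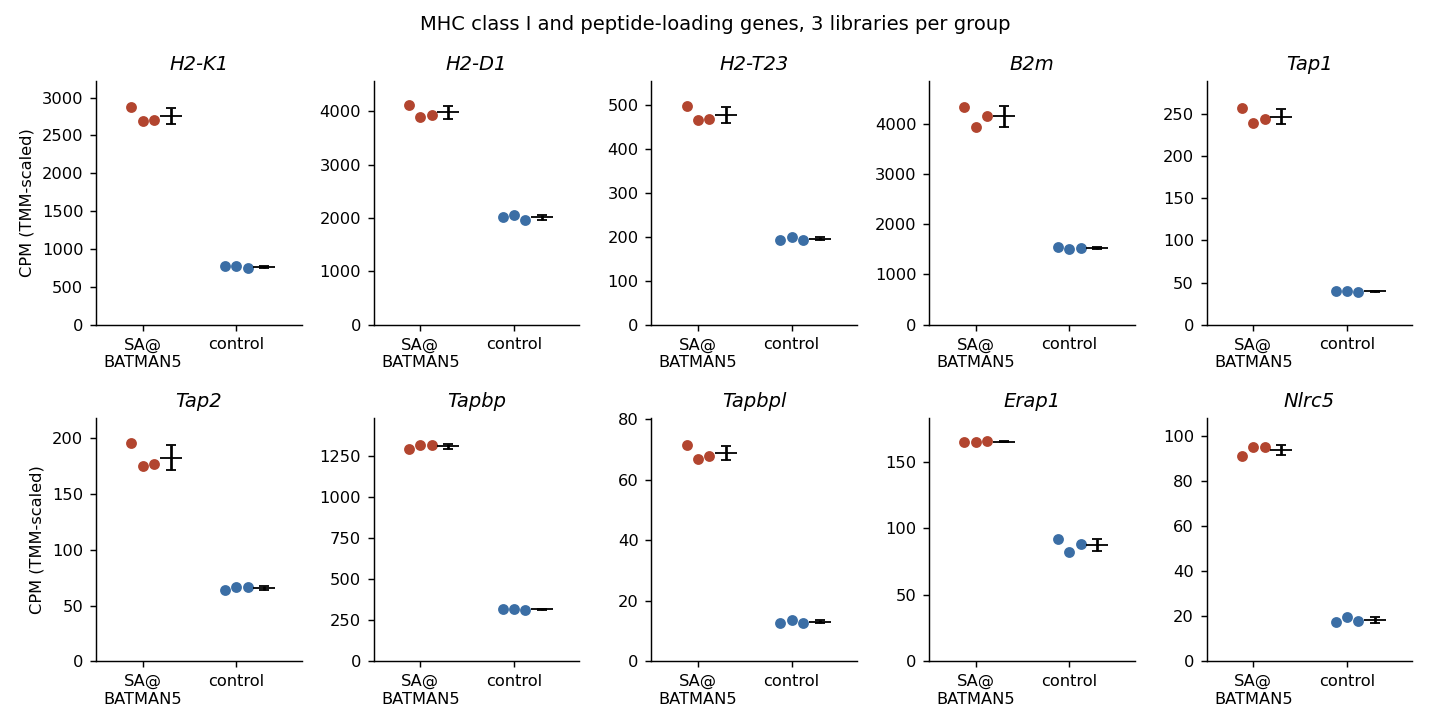
CPM (counts scaled to library size, with TMM factors; linear axes from 0) of the 10 genes in each of 3 SA@BATMAN5 and 3 control libraries, with the group mean and SD beside the points. In every panel all 3 SA@BATMAN5 libraries lie above all 3 control libraries, from 164.9 against at most 91.7 CPM for Erap1 to 239.7 against at most 39.9 CPM for Tap1.

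SA@BATMAN5 libraries held 29739263 to 37212125 counts and control libraries 38740103 to 47018154, so depth differed between the groups. Counts were not limiting for these genes: the lowest count of any of them in any library was 542. With all libraries thinned to the shallowest, all 10 were again called higher. All 8 macrophage markers were measured, 6 of them higher and 2 lower, beside 29.5% and 28.7% of all genes tested. They summed to 22840 to 23018 CPM in SA@BATMAN5 and 16308 to 16497 CPM in control libraries. The 2 lower were Itgam and Cd68, with log2 fold changes of -0.42 ± 0.03 and -0.24 ± 0.03 (SE). Adgre1 averaged 2829 ± 15.04 CPM in SA@BATMAN5 and 847 ± 47.8 CPM in control libraries (mean ± SD, n = 3 each). Markers of other cells were present as well. Stromal markers, 6 of 8 of which were tested and 5 higher, summed to 1077 to 1240 CPM in SA@BATMAN5 and 752 to 936 CPM in control libraries, with Lum at 0. Dendritic cell markers summed to 2073 to 2169 CPM in SA@BATMAN5 and 2945 to 3055 CPM in control libraries. Nearly all of this came from Itgax, which macrophages also express, and Flt3, Cd209a and Siglech were at 0. Of 5 tested, 1 was lower (Itgax) and 1 higher. The higher 1 was Ccr7, at 3.27 ± 0.38 CPM in SA@BATMAN5 and 0.089 ± 0.009 CPM in control libraries. Neutrophil markers, 4 of 8 of which were tested and 3 higher, summed to 60.9 to 71.5 CPM in SA@BATMAN5 and 7.76 to 8.58 CPM in control libraries. Most of this was S100a8, at 61.7 ± 5.0 CPM in SA@BATMAN5 and 5.63 ± 0.10 CPM in control libraries. S100a9 averaged 3.10 ± 0.38 CPM in SA@BATMAN5 and 1.73 ± 0.24 CPM in control libraries, and Ly6g, Mpo and Retnlg were at 0. Lymphocyte and natural killer markers summed to 6.96 to 10.41 CPM in SA@BATMAN5 and 3.47 to 5.40 CPM in control libraries, with Cd3e and Cd3d at 0. The part of these cells in the class I results was not tested, and in bulk RNA a change in the share of a cell type cannot be told apart from a change of RNA per cell.

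The classical heavy chains H2-K1 and H2-D1, which present peptides to cytotoxic T cells, were both higher. H2-K1 had 2873, 2690 and 2706 CPM in SA@BATMAN5 libraries, against 775, 775 and 751 CPM in control libraries. The lowest treated library was thus 3.47 times the highest control library (log2 fold change 1.85 ± 0.03 SE, edgeR adjusted p 3.17e-15). H2-D1 had 4121, 3895 and 3926 CPM in SA@BATMAN5 libraries, against 2021, 2049 and 1959 CPM in control libraries, with a log2 fold change of 0.99 ± 0.03 (adjusted p 1.33e-12, edgeR). Per length, H2-D1 was the more abundant of the pair, at 1553 ± 43.1 FPKM against 1426 ± 48.4 for H2-K1 in SA@BATMAN5 libraries, and at 825 ± 20.4 against 417 ± 6.6 in control libraries. The authors' deposited table gives H2-D1 a log2 fold change of 0.99 and Erap1 one of 0.92, and by its 2-fold rule does not label these 2 as up, while it does label the other 8.

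H2-T23 encodes Qa-1, a heavy chain recognised by CD94/NKG2 receptors of natural killer cells. It had 497, 466 and 467 CPM in SA@BATMAN5 libraries, against 193, 199 and 193 CPM in control libraries (log2 fold change 1.29 ± 0.03, edgeR adjusted p 4.02e-13). B2m, the invariant light chain that every one of these heavy chains needs at the surface, had 4341, 3935 and 4165 CPM in SA@BATMAN5 libraries, against 1556, 1517 and 1534 CPM in control libraries. Its log2 fold change was 1.43 ± 0.03 (adjusted p 9.14e-14, edgeR), between those of H2-D1 and H2-K1. Both genes separated the groups without overlap, and the spread within a group was small, with a coefficient of variation from 0.186% to 6.85% over the 10 members and both groups.

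The balance between partner chains was compared on FPKM, which scale counts by transcript length. The ratio of H2-K1 to H2-D1 was 0.918 ± 0.007 in SA@BATMAN5 and 0.505 ± 0.005 in control libraries (SD, n = 3 each). The groups did not overlap, and the two-sided exact permutation p was 0.1, the smallest that 3 against 3 libraries can give. This ratio was chosen after its values were seen. The ratio of B2m to the sum of H2-K1, H2-D1 and H2-T23 was 1.20 ± 0.03 in SA@BATMAN5 and 1.12 ± 0.03 in control libraries (exact permutation p = 0.1), a difference of 0.10 on the log2 scale. When the other H2-Q, H2-T and H2-M rows were added to the heavy chain sum the direction turned, to 0.910 ± 0.021 in SA@BATMAN5 and 1.07 ± 0.03 in control libraries (log2 difference -0.23, exact permutation p = 0.1).

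Those other class I heavy chain genes, mostly class Ib genes that are less polymorphic and often recognised by innate-like lymphocytes, were measured beside them. Of 30 listed, 23 had a row, 10 passed the filter, 8 had no count in any library and 5 had too few. The 10 that passed were all higher, beside 29.5% of all genes tested, with a median log2 fold change of 3.63. Each also had at least 27 counts in every control library. H2-M2, a class Ib gene, had 954, 990 and 1059 CPM in SA@BATMAN5 libraries, against 6.53, 4.96 and 5.10 CPM in control libraries (log2 fold change 7.49 ± 0.08, edgeR adjusted p 2.07e-17). Per length, H2-M2 stood at 574 ± 27.9 FPKM beside 262 ± 9.0 FPKM for H2-T23 in SA@BATMAN5 libraries, and at 3.31 ± 0.56 beside 113 ± 2.0 FPKM in control libraries. H2-T22, known as a ligand of some gamma delta T cell receptors, averaged 433 ± 14.6 CPM in SA@BATMAN5 and 67.6 ± 0.8 CPM in control libraries, and H2-Q4 averaged 220.5 ± 17.4 CPM in SA@BATMAN5 and 16.2 ± 0.6 CPM in control libraries. H2-Q6 and H2-Q7, near-identical copies of the Qa-2 group, had log2 fold changes of 5.99 ± 0.16 and 6.03 ± 0.12, and were added to the named genes after their values were seen.

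Counts outside H2-K1, H2-D1 and H2-T23 made up 21.1%, 21.4% and 22.1% of all class I heavy chain counts in SA@BATMAN5 libraries, against 4.38%, 4.27% and 4.31% in control libraries. The groups did not overlap (exact permutation p = 0.1, a share chosen after its values were seen). H2-M2 alone took 10.9 ± 0.8% of heavy chain counts in SA@BATMAN5 and 0.178 ± 0.027% in control libraries. H2-D1 made up 43.3 ± 0.2% in SA@BATMAN5 and 64.7 ± 0.2% in control libraries, and H2-K1 made up 29.98 ± 0.29% in SA@BATMAN5 and 24.7 ± 0.1% in control libraries. Reads shared among these paralogs may have been divided in a way the unnamed counting tool decided, so levels of single rows are uncertain, and strains differ in these genes. Summed over all 26 rows, heavy chain counts averaged 9185 ± 261 CPM in SA@BATMAN5 and 3108 ± 65.0 CPM in control libraries, a log2 fold change of 1.56 ± 0.03 that does not depend on how shared reads were divided within the sum (edgeR adjusted p 4.72e-15).

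**Figure D3:**
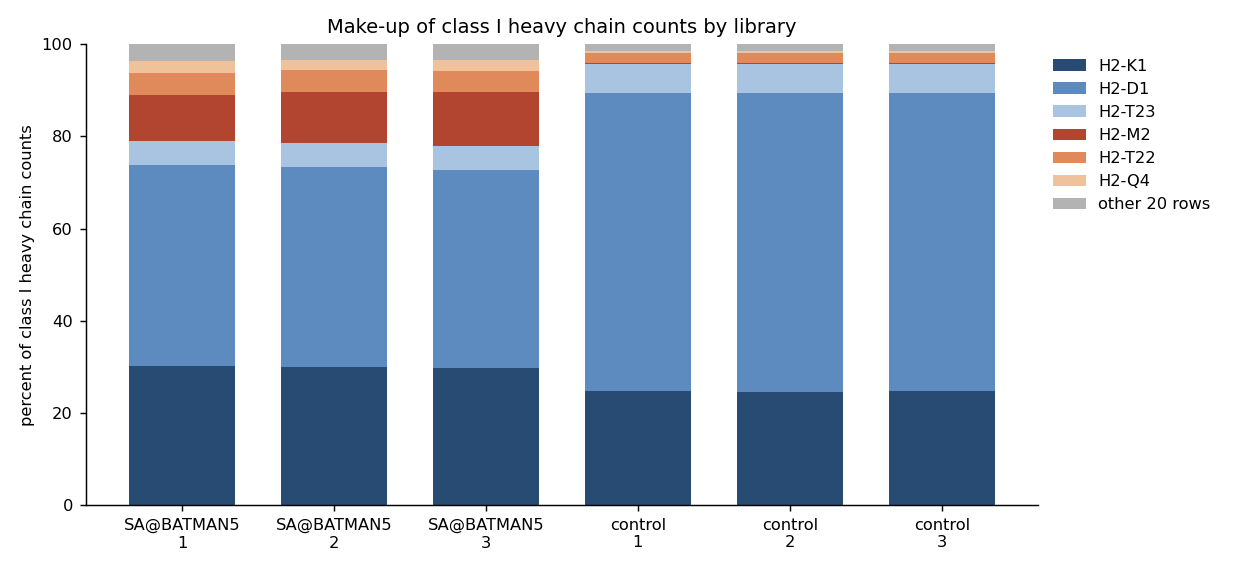
Percent of all class I heavy chain counts held by single genes in each of 3 SA@BATMAN5 and 3 control libraries, stacked to 100%. H2-M2, H2-T22, H2-Q4 and the other 20 rows together fill 21.1% to 22.1% of the SA@BATMAN5 bars and 4.27% to 4.38% of the control bars.

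Tap1 and Tap2 encode the 2 chains of the peptide transporter and rose unequally. Tap1 had 256.8, 239.7 and 244.3 CPM in SA@BATMAN5 libraries, against 39.9, 39.6 and 39.3 CPM in control libraries (log2 fold change 2.64 ± 0.04, edgeR adjusted p 6.55e-16). Tap2 had 195, 175 and 176 CPM in SA@BATMAN5 libraries, against 64.0, 66.1 and 66.8 CPM in control libraries (log2 fold change 1.47 ± 0.05, adjusted p 1.95e-12). Both separated without overlap. Per length, Tap1 stood at 1.55, 1.61 and 1.64 times Tap2 in SA@BATMAN5 libraries and at 0.730, 0.693 and 0.687 times Tap2 in control libraries. The more abundant transcript by FPKM thus differed between the groups, and the protein chains were not measured. The log2 ratio differed by 1.19 (two-sided exact permutation p = 0.1, the smallest possible here).

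Both genes lie among the class II genes of chromosome 17 in mouse. In the RefSeq order of the genes listed here (GRCm38.p6), Psmb9, Tap1, Psmb8 and Tap2 follow one another between H2-DMb1 and H2-Ob, and 6 of the 10 members are on this chromosome. The immunoproteasome neighbours Psmb9 and Psmb8 had log2 fold changes of 1.90 ± 0.05 and 2.06 ± 0.04, next to 2.64 for Tap1 and 1.47 for Tap2, whereas H2-DMb1, a class II peptide-loading gene beside them, had -0.14 ± 0.04 (edgeR adjusted p 0.00600). On the other side, H2-Ob, also a class II gene, was higher with 2.76 ± 0.68 (adjusted p 0.00300), at no more than 0.448 CPM in any library.

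Tapbp encodes tapasin, which bridges TAP and the heavy chain. It had 1296, 1316 and 1321 CPM in SA@BATMAN5 libraries, against 318, 319 and 312 CPM in control libraries (log2 fold change 2.05 ± 0.03, edgeR adjusted p 3.24e-16). Tapbpl encodes TAPBPR, a relative of tapasin that exchanges peptides outside the TAP complex. It had 71.5, 66.9 and 67.9 CPM in SA@BATMAN5 libraries, against 12.8, 13.6 and 12.8 CPM in control libraries (log2 fold change 2.40 ± 0.05, adjusted p 6.04e-14). Both loading factors were at least 4.06 times higher in the lowest treated library than in the highest control library. Tapbpl nevertheless remained far less abundant than Tapbp, at 23.6 ± 0.7 and 405 ± 7.5 FPKM in SA@BATMAN5 libraries.

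Erap1, the aminopeptidase that trims peptides inside the endoplasmic reticulum, showed the smallest rise of the 10. It had 165 CPM in each of the SA@BATMAN5 libraries, against 91.7, 82.3 and 88.6 CPM in control libraries (log2 fold change 0.91 ± 0.04, edgeR adjusted p 1.35e-10). Nlrc5, the class I transactivator, was the least abundant per length. It had 91.1, 95.3 and 95.0 CPM in SA@BATMAN5 libraries, against 17.4, 19.8 and 17.8 CPM in control libraries (log2 fold change 2.36 ± 0.05, adjusted p 6.25e-14). The fold change of Nlrc5 thus stood above those of all 4 structural chains.

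Ordered by FPKM, the members ran in treated cells from B2m (3897 ± 150.0) through H2-D1, H2-K1, Tapbp, H2-T23, Tap1, Tap2, Erap1 and Tapbpl to Nlrc5 (11.5 ± 0.2). The only neighbours in that order whose libraries overlapped were Erap1 and Tapbpl, at 23.8 ± 0.5 and 23.6 ± 0.7 FPKM. In control cells the order also began with B2m (1520 ± 22.9), H2-D1 and H2-K1 and ended with Tapbpl and Nlrc5 (2.38 ± 0.25), with no overlap between neighbours. The positions that changed were those of Tapbp and H2-T23, which swapped, and of Tap1, which stood above Tap2 and Erap1 in treated and below both in control cells. In all, the 10 genes took 1.31 ± 0.04% of library counts in SA@BATMAN5 and 0.518 ± 0.006% in control libraries (exact permutation p = 0.1).

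**Figure D4:**
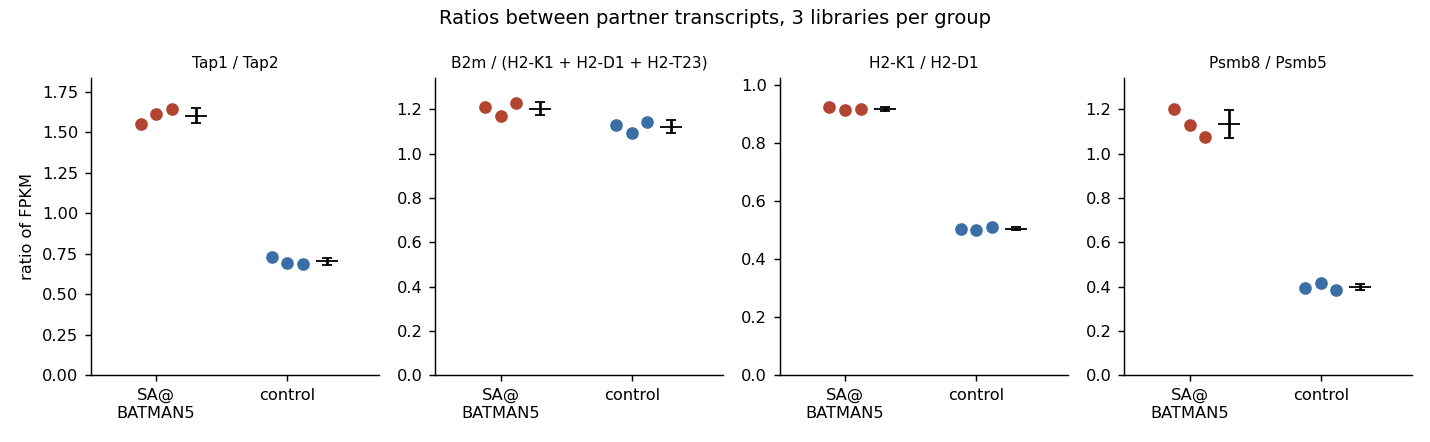
Ratios of FPKM between partner transcripts in each of 3 SA@BATMAN5 and 3 control libraries, with group mean and SD (linear axes from 0). Tap1 to Tap2 is 1.55 to 1.64 in SA@BATMAN5 and 0.687 to 0.730 in control libraries, while B2m to the 3 heavy chains is 1.17 to 1.23 in SA@BATMAN5 and 1.09 to 1.14 in control libraries.

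Among genes that supply peptides, of 6 immunoproteasome and proteasome activator genes all 6 were higher (median log2 fold change 1.81), among them Psme2, Psmb8 and Psme1, those with the smallest p, at 2.41 ± 0.04, 2.06 ± 0.04 and 1.71 ± 0.04. Psmb8 and Psme2 are a catalytic subunit of the immunoproteasome and a subunit of the PA28 activator. Pomp, named after its values were seen, had the smallest change of these 6 genes, at 0.60 ± 0.03. Of 5 genes for constitutive catalytic subunits and other activators 4 were higher, with a smaller median log2 fold change of 0.30. Psmb7, Psmb5 and Psmb6 had 0.62 ± 0.05, 0.56 ± 0.04 and 0.30 ± 0.04. Psme3 did not pass at 0.11 ± 0.04 (edgeR adjusted p 0.0521). The FPKM ratio of Psmb8 to Psmb5, the subunit it replaces, was 1.13 ± 0.06 in SA@BATMAN5 and 0.399 ± 0.015 in control libraries (exact permutation p = 0.1, chosen after its values were seen). Of 10 cytosolic and endosomal peptidases 5 were higher and 2 lower (4 and 4 with upper-quartile scaling), beside 29.5% higher and 28.7% lower of all genes tested. Rnpep, Npepps and Blmh had 0.80 ± 0.04, 0.61 ± 0.04 and 0.58 ± 0.05. The lysosomal protease Ctss had -0.14 ± 0.02, and Lap3 had -0.15 ± 0.05, a call lost without control replicate 1 (edgeR adjusted p 0.114) and without SA@BATMAN5 replicates 1 or 2 (0.0860 and 0.0618), as well as in DESeq2 (0.0547).

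Of 18 folding and export factors of the endoplasmic reticulum 5 were higher and 6 lower, shares near the 29.5% and 28.7% of all genes tested. Their median log2 fold change was -0.03, and the split was 3 and 10 with upper-quartile scaling. The lectin chaperone calreticulin (Calr) and the isomerase ERp57 (Pdia3), both parts of the class I loading complex, had -0.12 ± 0.03 (edgeR adjusted p 0.00177) and -0.08 ± 0.03 (0.0617), and calnexin (Canx) had 0.02 ± 0.03 (0.684). These 3 were named for that role after their values were seen. Of the genes that passed, Mogs, Sec22b and Hspa5 had 0.46 ± 0.05, 0.28 ± 0.05 and 0.16 ± 0.03, the last with an adjusted p of 0.0596 in limma on log2(FPKM + 1). Pdia4, Pdia6 and Bcap31, which serve disulphide exchange and export, fell by 0.94, 0.30 and 0.23 on the log2 scale. Tapbp and Tapbpl, the members devoted to class I, stood at 2.05 and 2.40 on the same scale.

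Of 17 factors that act at class I promoters 8 were higher and 3 lower, beside 29.5% and 28.7% of all genes tested, with a median log2 fold change of 0.13. Irf7 and Stat2, carriers of the interferon response, rose by 6.58 ± 0.07 and 2.73 ± 0.04 on the log2 scale. Stat2 averaged 326.5 ± 13.9 CPM in SA@BATMAN5 and 49.1 ± 1.9 CPM in control libraries. The factors known to assemble on the SXY element were mixed: Atf1, Nfya and Rfxank fell by 0.94, 0.49 and 0.29, Rfx5 had 0.52 ± 0.08 (edgeR adjusted p 5.84e-05), and Creb1, Nfyb, Nfyc and Rfxap did not pass, at 0.01, 0.13, -0.03 and -0.12.

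Class I-like molecules share the fold but present lipids or serve other roles. Of 9 tested 2 were higher and 3 lower, shares near the 29.5% and 28.7% of all genes tested, or 2 and 5 with upper-quartile scaling or library totals only. Procr, the protein C receptor, and Cd1d1, which presents lipids to natural killer T cells, rose by 4.18 ± 0.04 and 3.43 ± 0.07 on the log2 scale. Hfe, a regulator of iron uptake, averaged 27.4 ± 0.2 CPM in SA@BATMAN5 and 89.2 ± 3.7 CPM in control libraries. Ulbp1, a stress ligand of the receptor NKG2D, averaged 25.8 ± 1.3 CPM in SA@BATMAN5 and 72.9 ± 4.7 CPM in control libraries. Fcgrt, the neonatal Fc receptor, averaged 19.9 ± 0.9 CPM in SA@BATMAN5 and 37.4 ± 1.8 CPM in control libraries.

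Of 11 class II genes tested 4 were higher and 4 lower, near the shares of all genes tested (29.5% and 28.7%), with a median log2 fold change of -0.13, or 4 and 6 with upper-quartile scaling or library totals only. The class II transactivator Ciita, a relative of Nlrc5, averaged 5.88 ± 1.25 CPM in SA@BATMAN5 and 11.7 ± 0.7 CPM in control libraries, a log2 fold change of -0.99, beside 2.36 for Nlrc5. The invariant chain Cd74 fell by 0.30 and H2-DMa by 0.46 on the log2 scale, and H2-Ab1 rose by 0.31 ± 0.05. H2-Oa and H2-Eb2 passed as higher but averaged only 1.44 ± 0.11 and 0.447 ± 0.150 CPM in SA@BATMAN5 libraries, with 0.082 ± 0.034 CPM for H2-Oa in control libraries and no control count for H2-Eb2.

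**Figure D5:**
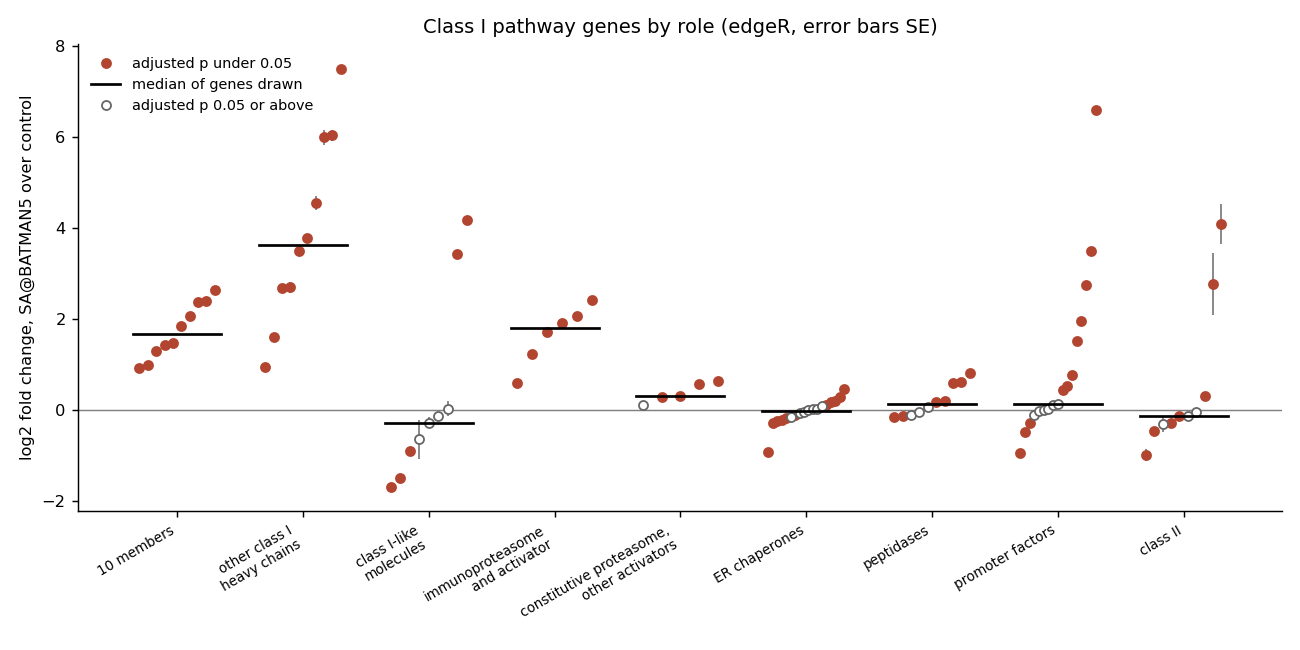
Log2 fold change, SA@BATMAN5 over control, with its SE for each tested gene of the class I pathway lists (filled where the edgeR adjusted p is under 0.05, open otherwise; bars are medians of the genes drawn; H2-Eb2, with no control count, is left out). The 10 members, the other heavy chains, the immunoproteasome genes and the constitutive proteasome genes lie wholly above 0. Class I-like molecules, chaperones, peptidases, promoter factors and class II genes lie on both sides.

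The genes whose libraries lay closest to the mean profile of the 10 members were Tnfaip3, Pbxip1, Fbxw17, Fyb and Map3k5. Likeness was the mean absolute difference in log2 CPM from the members' mean profile, centred on the control libraries, over 6 libraries and 9557 candidate genes, and it was 0.031 to 0.037 for these 5. Their log2 fold changes were 1.69 to 1.77, and none of them belongs to the class I pathway lists used here. Over treated and control libraries alone, such likeness largely reflects a fold change of similar size with small spread within groups. Shared regulation was not tested.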

How the data were processed

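Gene expression was measured in 6 RNA libraries, each from 1.3 ug of total RNA and a SMARTer mRNA kit per the labels' protocols. The deposited table holds the authors' whole-number counts per gene and their FPKM, per the file headers, beside their own DESeq2 comparison (a p-value and a log2 fold change for each gene). The submitters' processing notes list GRCm39 as the build, with HISAT2 (2.2.0), StringTie (2.1.2) and DESeq2 (1.26.0) as tools. Which tool counted reads, on which annotation and strand, was not given in the sources used here, so overlapping genes and paralogs may share reads. Column names carry S-5, read as SA@BATMAN5, and N, read as control. This is a reading of the names.

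Counts were filtered with filterByExpr (minimum count 10, minimum total 15), scaled by TMM and tested over all genes with edgeR 4.0.16 in R 4.3.3 (glmQLFit, glmQLFTest, two-sided, Benjamini-Hochberg threshold 0.05). The SE is the log2 fold change divided by the square root of its F. No library repeated another: pairs within a group had a chi-square of 4.56 to 7.80 for each degree of freedom. The code was tested on simulated data. Ratios were tested by two-sided exact permutation (scipy 1.17.1). The members and lists were chosen with earlier results of these data known. Beside the members, up to 3 genes of each list per direction with the smallest p were named, and 1 gene that this rule names is not reported here. Motif matches came from RefSeq promoters. Alternatives were other scalings, filters and tests (DESeq2 1.42.0, limma 3.58.1), thinning, a replicate block and leaving out single libraries. Figures were drawn with matplotlib 3.10.9.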

Additional observations from a re-analysis of the deposited data

How the results depend on the processing

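All 10 members stayed higher and called under each of 17 alternatives (3 other scalings, 2 other filters, DESeq2's Wald test, limma-voom, thinned counts, limma on FPKM with a pseudocount of 1 or 0.1, the replicate block and the removal of any 1 library), with log2 fold changes from 0.80 (Erap1) to 2.66 (Tap1). Without single libraries, 7328 to 7465 genes were called in all, against 7846 in the full fit. The replicate numbers did not pair the libraries (correlation of deviations 0.05, -0.003 and 0.04), and not every library correlated best with its own number. With the replicate block 7746 genes and all 10 members were called, the summed heavy chain row had a log2 fold change of 1.56, and the exact p of each ratio and share was 0.25, the smallest 3 pairs allow. The difference in the log2 ratio of B2m to heavy chains was -0.23 when all H2-Q, H2-T and H2-M rows joined the sum, against 0.10 without them, since those rows add more to treated libraries. With 3 libraries per group, no ratio test could go below 0.1.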

Other observations

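The 20-base spacing of TGACG and inverted CCAAT was noticed in H2-K1, H2-D1 and B2m, so these are left out of the count here. Of the other 14 tested genes with that spacing in their promoters 6 were higher, 5 lower and 3 not called, and 29.5% and 28.7% of all genes tested were higher and lower. H2-M3, also a class I heavy chain, had a log2 fold change of 1.59 ± 0.06. Outside the class I chains, Nfe2l1, which regulates proteasome genes, had 0.69 ± 0.03 and Tecpr1, an autophagy gene, had -1.08 ± 0.04 (edgeR adjusted p 3.01e-10 and 3.21e-11), both named after their values were seen.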
